A study of Mus musculus with 12 samples.

Results

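Netrin-1 is a secreted, laminin-related guidance protein. It binds receptors of several families, among them neogenin (Neo1), Dcc and the Unc5 family, and Dcc, neogenin and Unc5 receptors have been described as dependence receptors, which can promote cell death when the ligand is missing. In cultures of mouse embryonic stem cells some cells drift towards primitive endoderm, the extraembryonic lineage that forms beside the pluripotent epiblast. These cells turn on factors such as Gata6 and Sox17, carry the receptor Pdgfra, and secrete basement membrane.

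The comparison described here set 3 libraries of CGR8 cells with a netrin-1 point mutant named for neogenin (neo1 MUT) against 3 libraries with a point mutant named for Unc5b (unc5B MUT), out of 12 libraries in the study. CGR8 is a mouse embryonic stem cell line, grown here in medium with serum and LIF (leukemia inhibitory factor), which supports pluripotency. Both mutants were expressed from stably integrated ppy-cagg-ires-puro vectors carrying the altered netrin-1. The other groups were cells with the empty vector (control, n = 3) and cells with the vector encoding wild-type netrin-1 (netrin-1 WT, n = 3), and all 12 libraries were from the same cell line and medium. The sources used here do not give the residues changed in each mutant or whether the lines are clones or pools. The comparison asks how the transcriptome differs when netrin-1 is altered for one receptor rather than for the other. All autosomal genes were taken, with the replicate number in the sample title (1 to 3) as a block, which means that libraries with the same number were compared with each other. Of the 48821 autosomal genes listed, 20246 had enough counts to be tested, and the whole table held 52661 genes, of which 21053 were tested.

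Summed estimated counts were 23698151 to 42846220 in the neo1 MUT libraries and 23804324 to 59735737 in the unc5B MUT libraries. The libraries numbered 3 stood apart in every group. After removal of the group means, same-numbered mutant libraries correlated at 0.70 to 0.88, while a number 3 library and a library of another number correlated at -0.81 to -0.69. Subtracting a mean of 3 libraries by itself pushes correlations between different numbers below 0. Across the mutants, libraries numbered 1 and 2 still correlated at 0.55 to 0.56. Counts that rest on the number 3 libraries are therefore also given without them. Outside the autosomes, 9 of 23 tested Y-linked genes were lower in neo1 MUT and 1 was higher, and their log2 fold changes had a median of -4.88, while 20 of 717 X-linked genes were higher and 40 lower. The Y-linked gene Ddx3y averaged 74.1 CPM in unc5B MUT, 84.0 in control and 62.5 in netrin-1 WT but 0.513 in neo1 MUT, and Eif2s3y averaged 70.8, 80.2, 55.8 and 0.223 CPM in the same order. Both transcripts were thus nearly absent in neo1 MUT and abundant in the other 3 groups. Loss of the Y chromosome from these cells was not tested, and its part in the autosomal differences was not tested either. Levels are CPM, counts scaled to a common library size, as mean ± SD over n = 3 libraries or for libraries 1, 2 and 3 in that order. Log2 fold changes are neo1 MUT over unc5B MUT ± SE, so that a negative value is lower in neo1 MUT. Where 2 levels or triplets follow each other, unc5B MUT comes first. Genes are said to have risen or fallen in neo1 MUT, relative to unc5B MUT, only where the Benjamini-Hochberg adjusted p of the edgeR quasi-likelihood test was under 0.05. Separate cultures for the libraries of one group are not stated in the labels, so the p-values measure only how these libraries vary, and that variation may be technical.

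Ntn1 itself (ENSMUSG00000020902, chromosome 11, 68209364 to 68400823, minus strand, GRCm38) did not differ between the mutants beyond the spread of the libraries. It was at 322, 204 and 34.9 CPM in unc5B MUT and at 219, 201 and 56.4 CPM in neo1 MUT, and the ranges overlapped. The log2 fold change was 0.03 ± 0.30 (edgeR quasi-likelihood test, adjusted p = 0.973), with -0.55, -0.02 and 0.69 within numbers 1, 2 and 3. Control cells had 8.43 ± 7.34 CPM and netrin-1 WT cells 196 ± 108 CPM. These counts do not separate the cells' own transcript from a matching transcript of the vector. The receptor genes named in the mutants did not pass the test either. Neo1 was at 64.0 ± 29.7 CPM in unc5B MUT against 60.4 ± 23.4 CPM in neo1 MUT, with a log2 fold change of -0.04 ± 0.12 (adjusted p = 0.883). Unc5b was at 22.1 ± 4.94 and 25.8 ± 7.41 CPM, with 0.21 ± 0.16 (adjusted p = 0.506). None of the 13 tested netrin ligands and receptors and none of the 16 signalling effectors of netrin receptors passed the edgeR test. Over all autosomal genes tested 4.72% passed. The medians of these 2 lists were -0.04 and 0.07. Dcc, Ntn3 and Ntn5 had too few counts to be tested.

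Of the 20246 autosomal genes tested, 956 differed between the mutants (4.72%). In neo1 MUT 314 were higher (1.55%) and 642 were lower (3.17%), and 530 of the 956 differed at least 2-fold, 147 higher and 383 lower. The difference had one sign in all 3 replicate numbers for 951 of the 956 genes. For 636 of them the 3 libraries of one group all lay above those of the other, a separation seen for 11.5% of all autosomal genes tested. Both counts describe genes that the test selected from these same libraries, and such a selection favours one sign and separated groups. They are therefore not separate evidence for the calls. The authors' deposited table of the same comparison has 1218 of 19562 autosomal genes under an adjusted p of 0.05 (6.23%; 423 higher and 795 lower). Of the 956 genes 949 are in the authors' deposited table, where all 949 have the same sign and 828 are also under 0.05.

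The number of genes called depended on the replicate block and on single libraries. Without the block, with the group as the only term, 20 genes were called (0.0988%; 2 higher and 18 lower), and 1335 had an unadjusted p under 0.05. Those 20 genes were all among the 956. With the block, leaving out neo1 MUT library 1, 2 or 3 gave 293, 292 and 385 genes, and leaving out unc5B MUT library 1, 2 or 3 gave 109, 136 and 441. Leaving out the libraries numbered 1 or 2 in every group gave 17 and 16 genes, and leaving out those numbered 3 gave 2000. All of the 956 genes that could be tested under these settings kept their sign. Of the 74 genes named by a fixed rule that were called, 22 were called whichever 1 of the 6 mutant libraries was left out, and all 74 were called without the number 3 libraries. The 22 genes were Gata6, Sox17, Pdgfra, Klb, Serpinh1, Apom, Sparc, Col4a2, Dkk1, Cdx1, H19, Peg3, Peg13, Sfmbt2, Pramel7, Vim, Serpina3m, Nt5e, Lrrk2, Thsd7a, Ica1 and Susd1. The other called genes of the 74 lost the call without at least 1 of the 6 libraries. Gata6, Cubn, Tbx3, Dnmt3l, Phlda1, Pim1, Itgav, Bid, Cdh4, Sfmbt2 and Lrrc31 overlap a gene on the other strand, Col4a1 and Col4a2 overlap each other there, and Snrpn shares its strand with Snurf. The sources used here do not give whether counting used strand, and reads of these genes and their partners may not be separated.

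**Figure D1:**
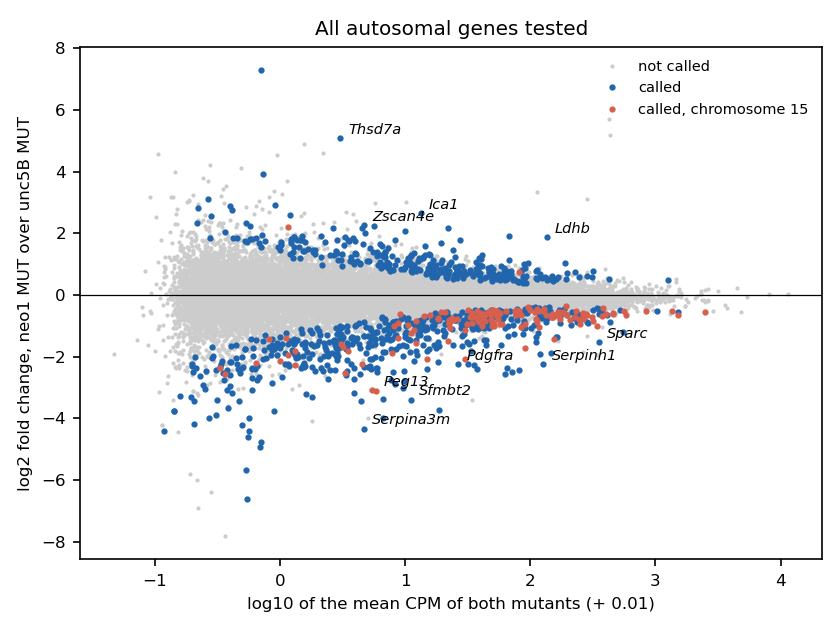
Log2 fold change of neo1 MUT over unc5B MUT (y axis) against the log10 of the mean CPM of both mutants plus 0.01 (x axis) for the 20246 autosomal genes tested, 1 point per gene. Coloured points are the 956 genes called, with the 142 on chromosome 15 in red; more genes lie below 0 (642) than above (314), and Thsd7a and Serpina3m are among the genes farthest from 0.

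Genes of primitive endoderm were lower in neo1 MUT. All 7 transcription factors of this lineage that were listed fell, against a background of 3.17% of autosomal genes that fell, and in all 7 the 3 neo1 MUT libraries lay below the 3 unc5B MUT libraries (background 6.42%). Their median log2 fold change was -1.89 (-1.60, -1.57 and -2.71 in numbers 1, 2 and 3), beside 0.00 over all autosomal genes tested. In bulk RNA, fewer endoderm cells in a culture and less of these transcripts in each cell cannot be told apart.

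Gata6 (ENSMUSG00000005836, chromosome 18, 11052064 to 11085635, plus strand), the factor that starts the primitive endoderm programme, was at 50.7, 39.1 and 40.0 CPM in unc5B MUT and at 16.7, 13.8 and 10.3 CPM in neo1 MUT. Every neo1 MUT library was below every unc5B MUT library. The log2 fold change was -1.67 ± 0.22 (edgeR quasi-likelihood test, adjusted p = 0.00293). Sox17 (chromosome 1, 4490931 to 4497354, minus strand), an endoderm factor that acts downstream of Gata6, was at 10.4, 5.27 and 8.09 CPM in unc5B MUT against 2.07, 1.62 and 0.787 CPM in neo1 MUT. Its log2 fold change was -2.35 ± 0.31 (adjusted p = 0.00357), again with no overlap. Gata4, the second GATA factor of this lineage, was at 14.0, 8.64 and 25.04 CPM and 5.13, 2.88 and 2.62 CPM, and differed most within number 3. Hnf4a, a nuclear receptor of extraembryonic endoderm, was at 27.2, 28.6 and 8.58 CPM and 7.03, 6.62 and 5.04 CPM, and here number 3 had the smallest gap. Sox7 and Foxa2 were low in both mutants and fell from 3.54 ± 1.08 and 1.99 ± 0.916 CPM to 1.09 ± 0.913 and 0.376 ± 0.185 CPM. The log2 fold changes of Gata4, Hnf4a, Sox7 and Foxa2 were -1.99, -1.61, -1.80 and -2.30, with edgeR adjusted p-values of 0.0149, 0.0133, 0.0245 and 0.0298. Gata6 and Sox17 were called whichever mutant library was left out. Of the 7 factors, 4, 4 and 5 were called without neo1 MUT library 1, 2 or 3, 2, 4 and 5 without unc5B MUT library 1, 2 or 3, 0 without the block and 7 without the libraries numbered 3. For this and the other lists, counts without the libraries numbered 1 or 2 in every group are not given. Over all autosomal genes tested, only 16 fell in either of those settings.

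**Figure D2:**
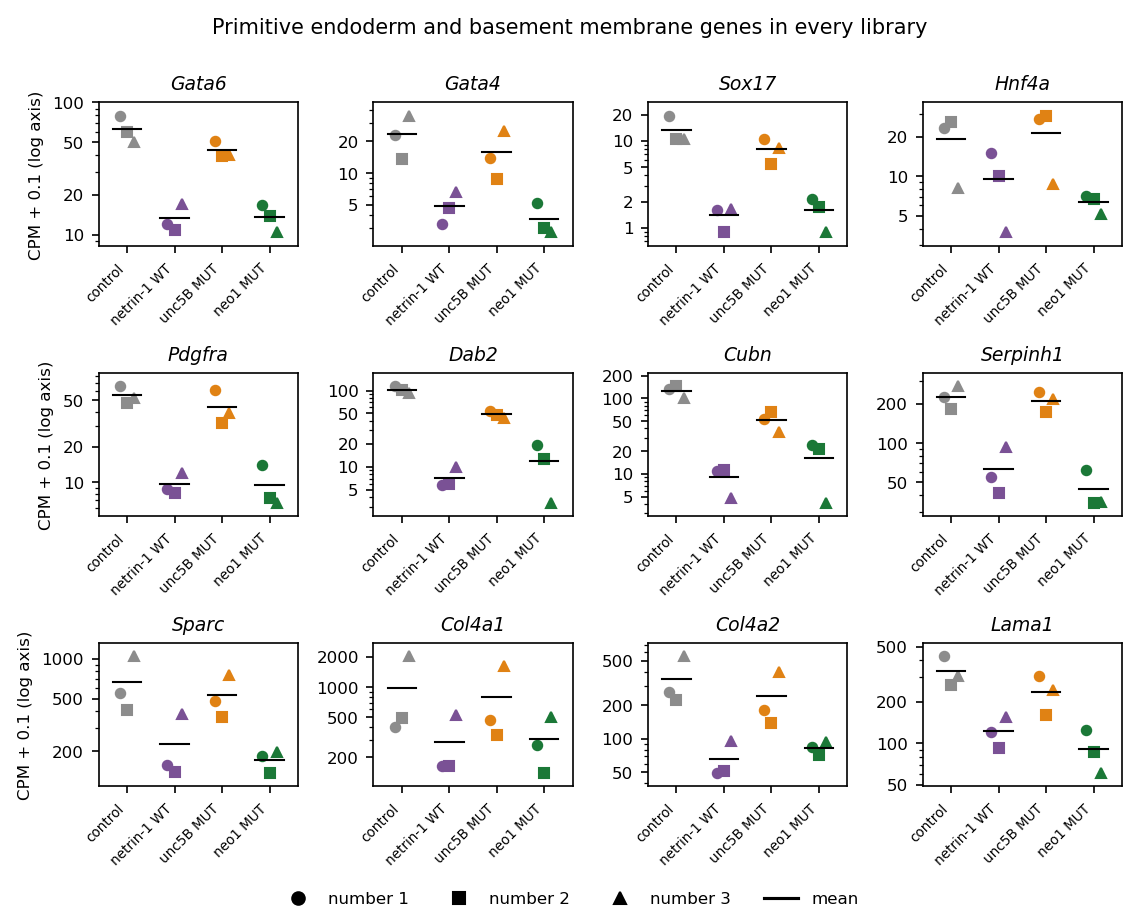
CPM plus 0.1 (log axis) of 12 primitive endoderm and basement membrane genes in each of the 12 libraries; marker shapes are replicate numbers, colours are groups and black lines are group means. For all genes shown except Col4a1 the 3 neo1 MUT libraries lie below the 3 unc5B MUT libraries, and for Gata6 they lie between 10.3 and 16.7 CPM against 39.1 to 50.7 CPM.

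Part of the list of surface receptors and endocytic proteins of this lineage was lower too. Of its 8 genes 5 fell (background 3.17%), 0 rose and 3 did not pass, with a median of -1.19. Pdgfra (ENSMUSG00000029231, chromosome 5, 75152292 to 75198215, plus strand), the PDGF receptor used as a surface marker of primitive endoderm, was at 61.1, 32.0 and 39.0 CPM in unc5B MUT against 14.0, 7.19 and 6.61 CPM in neo1 MUT. The groups did not overlap, and the log2 fold change was -2.25 ± 0.24 (edgeR quasi-likelihood test, adjusted p = 0.00102). Dab2 (chromosome 15, 6299788 to 6440712, plus strand), an endocytic adaptor, was at 53.4, 48.1 and 43.8 CPM and 19.5, 12.6 and 3.31 CPM, and Cubn (chromosome 2, 13276338 to 13491813, minus strand), the multiligand receptor cubilin, at 53.5, 65.0 and 36.3 CPM and 23.7, 21.2 and 4.09 CPM. In neo1 MUT both were lowest in library 3. Their log2 fold changes were -2.09 ± 0.43 and -1.82 ± 0.32 (adjusted p = 0.0235 and 0.013). Amn, the membrane partner of cubilin, was at 8.21 ± 1.41 CPM against 4.88 ± 0.350 CPM and fell (-0.74 ± 0.18, adjusted p = 0.0389). Lrp2, the large receptor megalin, fell by less, with -0.43 ± 0.10 (adjusted p = 0.0384) and overlapping groups. Fgfr2, through which FGF signals in this lineage, had -1.26 ± 0.32 and just missed the threshold (adjusted p = 0.0505). The annotated Fgfr2 entry (chromosome 7, 130162451 to 133123350, minus strand) overlaps many other tested genes on both strands, and their reads may not be separated. Clu (-1.11 ± 0.49) did not pass (adjusted p = 0.223). The 5 calls became 3, 2 and 3 without neo1 MUT library 1, 2 or 3, 1, 1 and 2 without unc5B MUT library 1, 2 or 3, and 5 without the libraries numbered 3.

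Among 11 tested genes for secreted and transport proteins of endoderm 5 fell (background 3.17%) and 0 rose, with a median of -1.76. Serpinh1 (chromosome 7, 99345376 to 99353239, minus strand), the collagen chaperone Hsp47 of the endoplasmic reticulum, was at 244, 173 and 216 CPM in unc5B MUT against 61.7, 35.1 and 35.6 CPM in neo1 MUT. The log2 fold change was -2.25 ± 0.24 (edgeR quasi-likelihood test, adjusted p = 0.00102), with no overlap. Apom, an apolipoprotein, fell from 5.23 ± 1.79 to 1.52 ± 0.381 CPM (adjusted p = 0.00281), and the water channel Aqp8 from 5.45 ± 2.74 to 1.41 ± 1.48 CPM (adjusted p = 0.0438). Habp2, a secreted serine protease, was at 5.18, 3.92 and 11.95 CPM and 1.62, 0.732 and 0.210 CPM, with the largest gap in number 3 (adjusted p = 0.0437). Fxyd3, the fifth, was below 2 CPM in every mutant library. The apolipoprotein Apoe (-0.25 ± 0.14, adjusted p = 0.325), the iron carrier transferrin Trf (0.72 ± 0.22, adjusted p = 0.0911) and the retinol carrier Rbp4 (0.54 ± 0.29, adjusted p = 0.322) did not pass. Afp, Apoa1 and Ttr had too few counts to be tested. The 5 calls became 2, 2 and 3 without neo1 MUT library 1, 2 or 3, 2 without any 1 of the unc5B MUT libraries, and 4 without the libraries numbered 3.

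The basement membrane list divided. Of 11 tested members 4 fell (background 3.17%), 0 rose and 7 did not pass. The median was -0.49, with -0.49, -0.14 and -0.90 within numbers 1, 2 and 3. Sparc (chromosome 11, 55394500 to 55423183, minus strand), a matrix glycoprotein made in large amounts by parietal endoderm, was at 480.3, 362 and 758 CPM in unc5B MUT against 183, 138 and 198 CPM in neo1 MUT (log2 fold change -1.54 ± 0.18, edgeR adjusted p = 0.00192). The collagen IV chains Col4a1 and Col4a2 lie on chromosome 8, overlap at their starts and are transcribed away from each other. Col4a2 (chromosome 8, 11312805 to 11449287, plus strand) was at 183, 139.8 and 400.5 CPM and 83.9, 71.8 and 94.0 CPM with no overlap (-1.37 ± 0.19, adjusted p = 0.00464). Col4a1 (chromosome 8, 11198423 to 11312826, minus strand) was at 472, 333 and 1602 CPM and 267, 141 and 499 CPM, with both number 3 libraries high and the groups overlapping, and a log2 fold change of -1.22 ± 0.23 (adjusted p = 0.0165). The laminin chain gene Lama1 fell from 237 ± 74.7 to 91.0 ± 32.2 CPM (-1.36 ± 0.23, adjusted p = 0.0105). The laminin partners Lamb1 (-1.01, adjusted p = 0.157) and Lamc1 (-0.32, adjusted p = 0.153) and the linker Nid1 (-0.49, adjusted p = 0.123) did not pass. Fibronectin (Fn1), Nid2, the perlecan gene Hspg2 and Lama5 had positive log2 fold changes of 0.50, 0.44, 0.33 and 0.23 and did not pass either (adjusted p = 0.096, 0.115, 0.24 and 0.492). The count of members that fell was 5, 3 and 3 without neo1 MUT library 1, 2 or 3, 2, 3 and 3 without unc5B MUT library 1, 2 or 3, and 4 without the libraries numbered 3.

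Markers of fibroblasts and feeder cells, which also secrete matrix, were looked at beside these lists. Of 10 tested markers 3 fell (background 3.17%) and 0 rose. The fitted median was 0.24, but the medians within numbers 1, 2 and 3 were -0.33, -0.14 and -0.90. The summed level of the markers was 248.0 to 338 CPM in unc5B MUT against 119 to 193 CPM in neo1 MUT. Vim, an intermediate filament gene also expressed in stem cells and endoderm, made up most of that sum, at 279.9 ± 52.8 and 144 ± 42.8 CPM (-0.98 ± 0.15, edgeR adjusted p = 0.00629). Thy1 fell from 7.67 ± 0.302 to 3.02 ± 1.05 CPM and Twist1 from 1.95 ± 1.17 to 0.545 ± 0.310 CPM. The fibrillar collagen gene Col1a1 was at 1.52 ± 0.140 and 1.89 ± 0.745 CPM and Col1a2 at 0.229 ± 0.0610 and 0.475 ± 0.410 CPM, and neither passed (adjusted p = 0.839 and 0.531). Col3a1, Dcn, Lum, Postn, S100a4 and Twist2 had too few counts to be tested. The part of these markers in the endoderm result was not tested.

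The endoderm genes had different positions relative to the other groups of the study. All 4 groups share one fit, and comparisons with the same control or netrin-1 WT libraries are not independent of each other. Against control, the 7 endoderm factors had a median of -2.58 in neo1 MUT, where 7 fell, and of -0.53 in unc5B MUT, where 0 fell. Over all autosomal genes tested, 5.14% were called for neo1 MUT against control and 0.0247% for unc5B MUT against control. Against netrin-1 WT, 0 of the 7 were called in neo1 MUT, with a median of 0.27, and 6 were higher in unc5B MUT, with a median of 2.22 (1.79% and 1.95% of all autosomal genes called in these comparisons). Gata6 was at 62.8 ± 14.3 CPM in control and 13.3 ± 3.33 CPM in netrin-1 WT, beside 43.3 ± 6.45 in unc5B MUT and 13.6 ± 3.23 in neo1 MUT. Pdgfra was at 54.9 ± 9.40 CPM in control, 44.0 ± 15.2 in unc5B MUT, 9.28 ± 4.13 in neo1 MUT, and 9.51 ± 2.16 in netrin-1 WT. The mean of unc5B MUT lay between those of control and neo1 MUT for Gata6, Pdgfra, Sox17, Sox7, Dab2, Cubn and Amn, but above both for Hnf4a. Dab2 was at 103 ± 9.96 CPM in control, 48.4 ± 4.81 in unc5B MUT, 11.8 ± 8.12 in neo1 MUT and 7.11 ± 2.28 in netrin-1 WT. Amn was at 17.3 ± 1.17, 8.21 ± 1.41, 4.88 ± 0.350 and 2.15 ± 0.163 CPM in the same order. The log2 fold changes of Dab2, Cubn and Amn in unc5B MUT against control were -1.08, -1.32 and -1.09 and did not pass the edgeR test (adjusted p = 0.974, 0.402 and 0.137). Amn was higher in neo1 MUT than in netrin-1 WT (1.17, adjusted p = 0.00977), while Apom was lower (-1.15, adjusted p = 0.0286).

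The promoters of these genes were searched for the core sequence bound by GATA factors, since Gata4 and Gata6 fell together with genes of the same lineage. The windows run from 250 bases before to 50 bases after the start of a RefSeq transcript (GRCm38.p6). Windows were held for 15 of the 21 endoderm and basement membrane genes that fell, 19 windows in all. AGATAA or TGATAA, on either strand, was present in 3 of the 19 windows (15.8%) and in 18.6% of all 32851 windows. The SOX core CATTGT, on either strand, was in 0 of the 19 and in 12.6% of all windows. The 3 windows with a GATA core, of Foxa2 (chr2:148045415-148045714, minus strand), Hnf4a (chr2:163506607-163506906, plus strand) and the first of 2 windows of Dab2 (chr15:6299539-6299838, plus strand), follow with the core in capitals. In Dab2 the second core is on the opposite strand and reads TTATCT.
Foxa2: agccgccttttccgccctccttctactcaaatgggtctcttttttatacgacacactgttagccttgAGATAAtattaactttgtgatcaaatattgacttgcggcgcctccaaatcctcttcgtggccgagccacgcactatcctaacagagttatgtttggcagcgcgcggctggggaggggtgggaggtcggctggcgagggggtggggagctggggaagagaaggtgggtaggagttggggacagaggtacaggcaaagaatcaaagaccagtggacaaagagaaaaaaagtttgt
Hnf4a: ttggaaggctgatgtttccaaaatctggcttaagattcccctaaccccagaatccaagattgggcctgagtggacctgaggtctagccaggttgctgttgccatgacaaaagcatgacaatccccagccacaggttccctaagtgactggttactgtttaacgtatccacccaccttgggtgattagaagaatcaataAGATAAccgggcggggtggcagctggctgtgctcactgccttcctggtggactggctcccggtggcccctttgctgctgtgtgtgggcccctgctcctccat
Dab2: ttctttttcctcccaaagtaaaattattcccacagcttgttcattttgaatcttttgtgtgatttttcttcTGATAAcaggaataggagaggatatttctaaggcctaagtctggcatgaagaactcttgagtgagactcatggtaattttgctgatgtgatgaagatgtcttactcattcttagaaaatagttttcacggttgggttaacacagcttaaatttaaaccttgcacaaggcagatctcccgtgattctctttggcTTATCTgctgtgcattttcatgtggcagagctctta
Col4a2 (chr8:11312555-11312854, plus strand) has neither core, and its window overlaps that of Col4a1 (chr8:11312777-11313076, minus strand), so that both collagen genes start within a shared stretch.
Col4a2: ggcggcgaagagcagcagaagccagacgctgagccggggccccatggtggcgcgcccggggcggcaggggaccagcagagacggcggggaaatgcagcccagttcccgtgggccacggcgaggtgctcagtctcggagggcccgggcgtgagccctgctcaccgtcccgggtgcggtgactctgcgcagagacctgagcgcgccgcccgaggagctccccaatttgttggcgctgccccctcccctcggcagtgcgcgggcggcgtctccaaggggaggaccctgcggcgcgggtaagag
A match is a description of these letters only, and it was not tested whether a factor binds there.

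None of the 11 core pluripotency genes passed the test, beside 4.72% of all autosomal genes tested, and their median was -0.18. Pou5f1 (Oct4) was at 1296 ± 188 CPM in unc5B MUT against 1239 ± 259 CPM in neo1 MUT, with a log2 fold change of -0.08 ± 0.09 (edgeR adjusted p = 0.673). Sox2 had 0.11 ± 0.13 (adjusted p = 0.711) and Nanog -0.41 ± 0.29 (adjusted p = 0.466). Of 17 genes of the naive pluripotent state 1 fell and 0 rose, beside 3.17% and 1.55% of all autosomal genes tested. That gene was Tbx3, a T-box factor that is also expressed in early endoderm, at 158, 99.1 and 152 CPM in unc5B MUT against 62.0, 49.4 and 87.0 CPM in neo1 MUT, without overlap (-1.07 ± 0.23, adjusted p = 0.0278). It was called without unc5B MUT library 3 but lost the call without any 1 of the other mutant libraries (adjusted p up to 0.171). Among the other naive factors, Esrrb had 0.15, Tfcp2l1 0.04, Klf4 -0.31 and Zfp42 -0.64, with adjusted p-values of 0.661, 0.88, 0.454 and 0.161. Of 10 formative and primed genes 1 fell (background 3.17%), the methyltransferase gene Dnmt3b. Otx2, a factor of the formative state, was higher in all 3 neo1 MUT libraries (19.11 ± 5.49 against 33.6 ± 3.29 CPM) but did not pass (adjusted p = 0.213). Of the other germ-layer lists, 0 of 9 neuroectoderm and 0 of 11 trophectoderm genes were called (background 4.72%). Of 9 mesendoderm genes 1 was called (background 4.72%), Foxa2, which is also an endoderm factor. All 11 genes chosen to check embryonic stem cell identity were measured, and 0 were called (background 4.72%). Their summed level was 4802 to 5606 CPM in unc5B MUT against 4028 to 5358 CPM in neo1 MUT. For lists this short, counts of 0 or 1 cannot be told from these background shares.

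**Figure D3:**
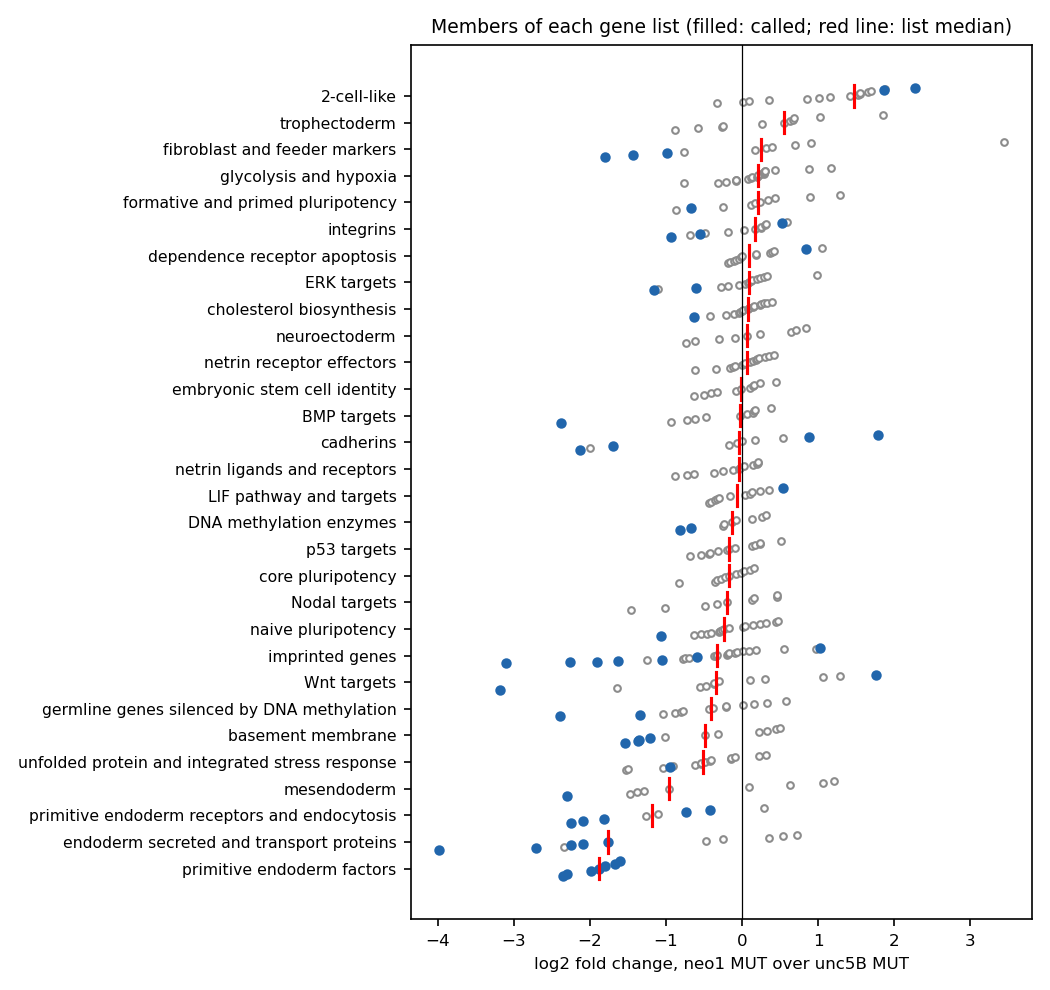
Log2 fold changes of neo1 MUT over unc5B MUT (x axis) for the members of each gene list (y axis, ordered by median). Filled points passed the edgeR test, open points did not, and red lines are list medians, the lowest of which is -1.89 for the primitive endoderm factors and the highest 1.47 for the 2-cell-like genes.

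The 2-cell-like list, with genes of a rare state that resembles the early embryo, had the highest median of all lists (1.47), but only 2 of its 16 tested members rose (background 1.55%). In 0 of the 16 did the 3 neo1 MUT libraries all lie above those of unc5B MUT, beside 5.12% of all autosomal genes tested. Zscan4e was at 2.14, 2.11 and 0.380 CPM in unc5B MUT against 11.7, 10.4 and 1.63 CPM in neo1 MUT, so that neo1 MUT library 3 overlapped with unc5B MUT libraries 1 and 2. Its log2 fold change was 2.27 ± 0.34 (edgeR adjusted p = 0.00629), with 2.43, 2.26 and 1.95 within numbers 1, 2 and 3. Zscan4d had 1.87 ± 0.39 (adjusted p = 0.0245). Zscan4c and Zscan4f, with 1.69 and 1.65, missed the threshold (adjusted p = 0.0563 and 0.058). The list median was 1.78 and 1.56 in numbers 1 and 2 but -0.23 in number 3. Zscan4 genes lie together on chromosome 7 as near-identical copies, so the division of reads between them is uncertain, and the rise of the pseudogene Zscan4-ps2 (1.86 ± 0.36, adjusted p = 0.0181) is uncertain in the same way. Zscan4e lost the call without unc5B MUT library 1 (adjusted p = 0.0652), and Zscan4d without any 1 of the mutant libraries except neo1 MUT library 3 (up to 0.168). Zscan4e was at 1.23 ± 0.845 CPM in control and 6.85 ± 2.70 CPM in netrin-1 WT.

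In each of the signalling lists 0 to 2 genes were called, beside 4.72% of all autosomal genes tested. Of 12 Wnt targets 1 fell and 1 rose. Dkk1 (chromosome 19, 30545863 to 30549665, minus strand), a secreted Wnt antagonist, was at 10.4, 4.38 and 6.41 CPM in unc5B MUT against 1.45, 0.628 and 0.315 CPM in neo1 MUT (-3.18 ± 0.32, edgeR adjusted p = 0.000957). Cdx1, a homeobox gene induced by Wnt, was at 1.42, 1.74 and 1.47 CPM and 4.59, 4.68 and 7.08 CPM, the opposite direction (1.76 ± 0.25, adjusted p = 0.00456). Both genes separated the groups without overlap. Axin2, a general Wnt feedback gene, did not pass (-0.37 ± 0.20, adjusted p = 0.318). Of 16 ERK targets 2 fell, Phlda1 (from 27.5 ± 4.41 to 12.7 ± 4.61 CPM, adjusted p = 0.0119) and the feedback inhibitor Spry2 (from 71.7 ± 9.17 to 47.2 ± 7.02 CPM, adjusted p = 0.0245). Fgf4, the FGF ligand made by pluripotent cells, was higher in all 3 neo1 MUT libraries and just missed the threshold (0.45 ± 0.12, adjusted p = 0.0563). Of 12 genes of the LIF pathway 1 rose, the kinase gene Pim1 (0.54 ± 0.12, adjusted p = 0.0299). Of 11 BMP genes 1 fell, the ligand Bmp2, at 0.826 ± 0.247 CPM in unc5B MUT against 0.148 ± 0.0916 CPM in neo1 MUT. Of 9 Nodal targets and 13 p53 targets 0 were called. Phlda1 lost the call without unc5B MUT library 1 (adjusted p = 0.0821), and Spry2 and Pim1 lost it without any 1 of the mutant libraries (up to 0.166 and 0.178).

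Lists of apoptosis, integrin and cadherin genes, drawn from known functions of netrin receptors, gave 1, 3 and 4 calls, beside 4.72% of all autosomal genes tested. Among 14 genes of apoptosis downstream of dependence receptors 1 rose. Bid, a BH3-only protein that links caspase-8 to mitochondria, was at 23.4, 22.7 and 36.2 CPM in unc5B MUT against 44.7, 41.2 and 60.1 CPM in neo1 MUT (0.84 ± 0.13, edgeR adjusted p = 0.00644). It overlaps Bcl2l13 on the other strand. Dock1, a Rac activator that acts downstream of netrin receptors, just missed the threshold (0.42 ± 0.11, adjusted p = 0.0508). Of 13 integrin genes Itgav rose (0.52 ± 0.13, adjusted p = 0.0455) and Itgb5 (-0.93 ± 0.14, adjusted p = 0.00699) and Itga5 (-0.55 ± 0.14, adjusted p = 0.0483) fell. Of 10 cadherins and junction genes 2 rose and 2 fell. Cdh3 (P-cadherin) was at 3.39, 4.38 and 3.21 CPM and 9.02, 16.3 and 13.3 CPM (1.79 ± 0.35, adjusted p = 0.02), and Epcam rose from 32.5 ± 11.96 to 60.1 ± 24.5 CPM (adjusted p = 0.0318). Cdh4 and Cdh6 fell (-1.70 ± 0.34 and -2.13 ± 0.40, adjusted p = 0.021 and 0.0165), and Cdh1 (E-cadherin) did not pass (0.54 ± 0.15, adjusted p = 0.0678). Itgav, Itga5, Epcam and Cdh4 lost the call without any 1 of the mutant libraries, Itgb5 without unc5B MUT library 1, Bid without unc5B MUT library 1 or 2, Cdh3 without any 1 except neo1 MUT library 1, and Cdh6 without library 1 or 2 of either mutant.

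In the list of the unfolded protein and integrated stress responses 1 of 16 tested members fell, near the background of 3.17% (Ddit3 has 2 Ensembl IDs and counts as 2). Negative values were found for 14 of 16, beside 10128 of the 20246 autosomal genes tested, and the list median was -0.51. The member that fell was Herpud1, a part of the endoplasmic reticulum degradation machinery (-0.95 ± 0.21, edgeR adjusted p = 0.0304). Herpud1 lost the call without any 1 of the mutant libraries (adjusted p up to 0.178). Atf4, the main transcription factor of the integrated stress response, lies on chromosome 15 and was at 229, 129 and 395 CPM in unc5B MUT against 79.7, 52.8 and 113 CPM in neo1 MUT. Its groups did not overlap, but the adjusted p was 0.0507. Its targets Psat1 (-0.62) and Chac1 (-1.03) did not pass (adjusted p = 0.0579 and 0.208). Of 17 cholesterol biosynthesis genes 1 fell (background 3.17%), Sqle on chromosome 15 (-0.64 ± 0.10, adjusted p = 0.00659). Sqle lost the call without unc5B MUT library 1 or 2. Of 21 glycolysis and hypoxia genes 0 were called, beside 4.72% of all autosomal genes tested.

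Of 24 tested imprinted genes, which are expressed from one parental allele and regulated by DNA methylation, 6 fell and 1 rose (backgrounds 3.17% and 1.55%), with a median of -0.33. Peg13 (ENSMUSG00000106847, chromosome 15, 72805600 to 72810324, minus strand), a non-coding RNA inside an intron of Trappc9, was at 11.9, 13.2 and 6.30 CPM in unc5B MUT against 1.41, 1.18 and 0.997 CPM in neo1 MUT. Its log2 fold change was -3.10 ± 0.25 (edgeR adjusted p = 0.000178), and it was also called without the block (adjusted p = 0.0256). Trappc9 itself had 0.00 ± 0.16 (adjusted p = 0.998), and the next tested genes Chrac1 and Ago2 had -0.35 ± 0.24 and -0.08 ± 0.19 (adjusted p = 0.438 and 0.855). H19 (chromosome 7, 142575529 to 142578143, minus strand), a maternally expressed RNA abundant in endoderm, was at 27.6, 36.6 and 117 CPM and 8.67, 6.51 and 16.6 CPM, high in number 3 of both groups (-2.26 ± 0.27, adjusted p = 0.00223). Dlk1, Grb10 and Snrpn fell, with log2 fold changes of -1.90, -1.63 and -0.59 (adjusted p = 0.013, 0.0245 and 0.0192). Peg3, a zinc finger gene expressed from the paternal allele, was at 71.0, 68.7 and 25.2 CPM and 26.6, 38.6 and 13.2 CPM (-1.06 ± 0.15, adjusted p = 0.00464), and Peg10 rose from 131 ± 43.3 to 249.6 ± 20.7 CPM (adjusted p = 0.0336). Meg3, Rian and Mirg, maternal RNAs of the Dlk1 domain, did not pass (-0.34, -0.19 and -0.75; adjusted p = 0.487, 0.617 and 0.197). Dlk1 kept the call in 2 of the 6 fits that left out 1 mutant library, and Grb10 and Snrpn in 1 each.

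Of 9 genes for DNA methylation and demethylation enzymes 2 fell (background 3.17%). Dnmt3l, the catalytically inactive cofactor of the de novo methyltransferases, was at 338, 256 and 323 CPM in unc5B MUT against 210.0, 136.8 and 177 CPM in neo1 MUT, without overlap (-0.82 ± 0.15, edgeR adjusted p = 0.015). Dnmt3b, a de novo methyltransferase, was at 234, 213 and 192 CPM and 146, 162 and 102 CPM (-0.67 ± 0.13, adjusted p = 0.0172). Dnmt3a (-0.25 ± 0.13, adjusted p = 0.295) and the dioxygenase gene Tet1 (0.31 ± 0.13, adjusted p = 0.198) did not pass. Of 14 germline genes known to be silenced by DNA methylation 2 fell (background 3.17%) and 0 rose. They were Dazl, a germ cell RNA-binding protein (47.5, 31.3 and 43.8 CPM against 17.4, 11.8 and 20.1 CPM; -1.34 ± 0.31, adjusted p = 0.0356), and the ribosomal protein gene Rpl10l (-2.39 ± 0.58, adjusted p = 0.0421). Of the 6 fits that left out 1 mutant library, Dnmt3b kept the call in 2, Dnmt3l and Rpl10l in 1 and Dazl in 0 (adjusted p up to 0.089, 0.0828, 0.204 and 0.181).

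These genes stood differently in the other groups. Peg13 was at 9.33 ± 3.64 CPM in control and 7.13 ± 0.922 CPM in netrin-1 WT, so that neo1 MUT was the low group, and its log2 fold change in neo1 MUT was -2.93 against control and -2.60 against netrin-1 WT (edgeR adjusted p = 0.00024 and 0.000683). Dnmt3l, at 299.5 ± 46.5 CPM in control and 278 ± 51.4 CPM in netrin-1 WT, was likewise lower in neo1 MUT than in either (-0.78 and -0.67; adjusted p = 0.0154 and 0.0477). Peg3 and Dazl were also lower in neo1 MUT than in control (adjusted p = 0.00268 and 0.0378) and than in netrin-1 WT (adjusted p = 0.00519 and 0.0404). H19, Dlk1, Rpl10l and Dnmt3b were lower in neo1 MUT than in control but did not pass against netrin-1 WT (edgeR adjusted p = 0.174, 0.064, 0.17 and 0.553). H19 was also lower in netrin-1 WT than in control (-1.80, adjusted p = 0.00541). Grb10 was lower than in netrin-1 WT (adjusted p = 0.0387) but did not pass against control (adjusted p = 0.272). Dkk1 was at 8.15 ± 3.76 CPM in control and 0.570 ± 0.330 CPM in netrin-1 WT. Its difference between neo1 MUT and netrin-1 WT did not pass the test (0.51, adjusted p = 0.558). Cdx1 was higher in neo1 MUT than in control and netrin-1 WT (1.52 and 1.48; adjusted p = 0.00801 and 0.0139).

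**Figure D4:**
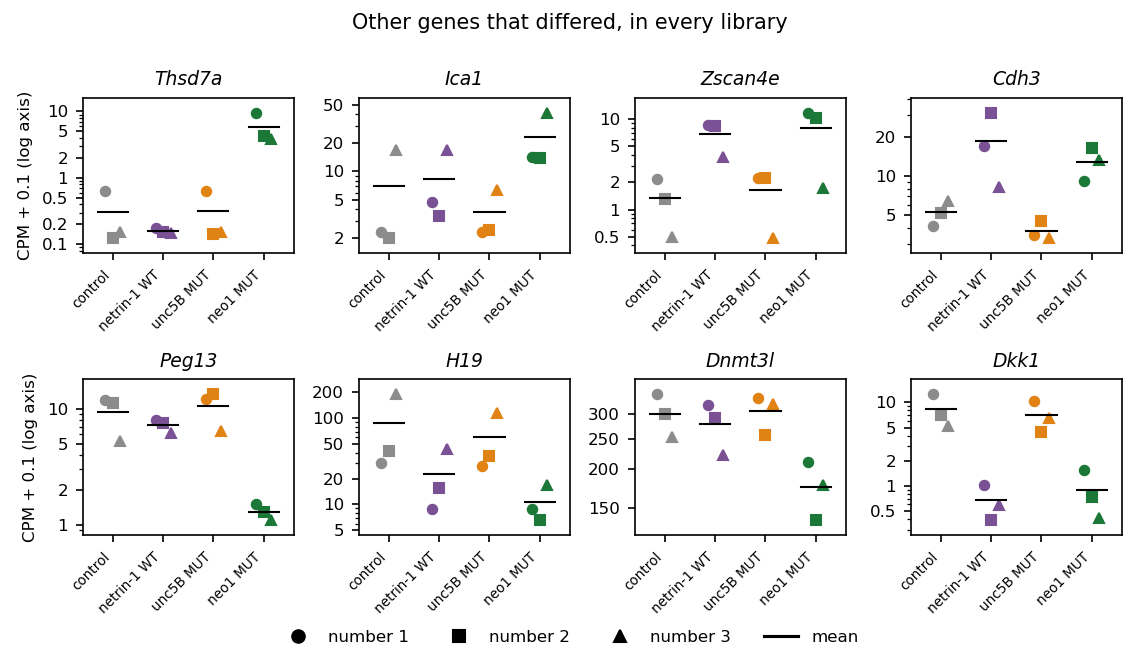
CPM plus 0.1 (log axis) of 8 genes outside the endoderm lists in each of the 12 libraries; marker shapes are replicate numbers, colours are groups and black lines are group means. The group means of Thsd7a and Ica1 are highest and those of Peg13 and Dnmt3l lowest in neo1 MUT, while for Dkk1 neo1 MUT and netrin-1 WT are both low. For Ica1, library 3 of control (16.6 CPM) and of netrin-1 WT (16.8 CPM) lie above neo1 MUT libraries 1 and 2 (14.1 and 13.7 CPM).

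The genes with the largest differences that met a minimum level of 5 CPM were named by rule, 15 each way. Among the lower ones Serpina3m (ENSMUSG00000079012, chromosome 12, 104338486 to 104394257, plus strand), a serine protease inhibitor that overlaps Serpina3k, was at 14.3, 9.04 and 3.59 CPM in unc5B MUT against 0.556, 0.314 and 0.420 CPM in neo1 MUT (-4.33 ± 0.32, edgeR adjusted p = 0.000102). Sfmbt2, a Polycomb-related gene imprinted in extraembryonic tissue, was at 33.4, 22.2 and 5.54 CPM and 2.46, 1.94 and 0.892 CPM (-3.40 ± 0.33, adjusted p = 0.000772). The ectonucleotidase gene Nt5e (CD73) was at 24.2, 17.8 and 9.62 CPM and 3.67, 1.99 and 0.734 CPM (-3.02 ± 0.37, adjusted p = 0.00221), and the kinase gene Lrrk2 at 13.14, 14.2 and 2.06 CPM and 1.71, 1.39 and 0.210 CPM (-3.09 ± 0.33, adjusted p = 0.00106). For Sfmbt2 and Lrrk2 the number 3 libraries were low in both mutants, and the difference was negative within each number (-3.74, -3.48 and -2.56 for Sfmbt2; -2.90, -3.30 and -3.00 for Lrrk2). Klb, the co-receptor of FGF receptors, fell from 13.2 ± 5.39 to 2.69 ± 2.56 CPM, and Bmper, a BMP-binding protein, from 5.99 ± 3.91 to 0.783 ± 0.362 CPM. Pramel6 and Pramel7, neighbouring genes on chromosome 2 expressed in early embryos and naive stem cells, fell with log2 fold changes of -3.99 and -2.45 (adjusted p = 0.0121 and 0.00659). Ddr2, Cyp2b23, Plb1 and Nlrp4c had log2 fold changes between -2.88 and -2.50. Bmper lost the call without any 1 of the mutant libraries, and Pramel6 without neo1 MUT library 1 or unc5B MUT library 1 or 2.

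Among the higher ones Thsd7a (ENSMUSG00000032625, chromosome 6, 12311610 to 12749410, minus strand), a membrane protein with thrombospondin repeats, had the largest difference. It was at 0.547, 0.0436 and 0.0543 CPM in unc5B MUT against 9.47, 4.16 and 3.72 CPM in neo1 MUT (5.10 ± 0.56, edgeR adjusted p = 0.00116). In control it was at 0.531, 0.0239 and 0.0558 CPM and in netrin-1 WT at 0.0738, 0.0530 and 0.0485 CPM, so that it was above 1 CPM in neo1 MUT libraries only. Ica1 (ENSMUSG00000062995, chromosome 6, 8630527 to 8778488, minus strand), a gene for a BAR-domain protein of secretory vesicles, was at 2.22, 2.31 and 6.36 CPM and 14.1, 13.7 and 41.2 CPM (2.64 ± 0.31, adjusted p = 0.00192). Library 3 was the highest of each group, and the within-number differences were close to each other, at 2.63, 2.54 and 2.69. In control Ica1 was at 2.24, 1.89 and 16.6 CPM and in netrin-1 WT at 4.65, 3.34 and 16.8 CPM, so that library 3 of both overlapped with neo1 MUT. Proximal to Ica1, C1galt1 (0.80 ± 0.17, adjusted p = 0.0291) and Mios (0.85 ± 0.14, adjusted p = 0.0114) also rose, C1galt1 with overlapping groups. In the same stretch Rpa3, Umad1, Glcci1 and the pseudogene Gm9825 had 0.45, 0.43, 0.94 and 0.03 and did not pass (adjusted p = 0.139, 0.471, 0.15 and 0.924). Gm45062 and Gm16042, which overlap these genes, did not pass either. Ndufa4 (-0.17 ± 0.10, adjusted p = 0.383) and Phf14 (-0.02 ± 0.16, adjusted p = 0.97), which lie between Ica1 and Thsd7a, did not pass.

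Other genes that rose were Susd1, a membrane protein with sushi domains (6.63, 9.65 and 7.497 CPM against 34.7, 47.2 and 26.4 CPM; 2.16 ± 0.29, edgeR adjusted p = 0.00344), and Ldhb, the lactate dehydrogenase subunit B (45.6, 58.5 and 67.3 CPM against 148, 181 and 314 CPM; 1.89 ± 0.31, adjusted p = 0.0101). Fxyd6, a regulator of the sodium pump, was at 25.3, 29.3 and 27.9 CPM and 127, 131 and 66.4 CPM, and Pde4c, a cAMP phosphodiesterase, at 1.66, 1.92 and 2.17 CPM and 7.31, 7.09 and 8.66 CPM. These 4 genes separated the groups without overlap. Susd1 was called in all 6 fits that left out 1 mutant library, Ldhb and Fxyd6 lost the call without unc5B MUT library 1 or 2, and Pde4c without unc5B MUT library 1. Clip3, Lrrc31 and Tdrd5 rose by 2.08, 2.18 and 2.24 on the log2 scale (adjusted p = 0.0269, 0.0368 and 0.0424). Tdrd5 was at 2.12, 4.42 and 24.0 CPM in neo1 MUT, highest in library 3. It lost the call without any 1 of the mutant libraries except unc5B MUT library 3 (adjusted p up to 0.172) and in the fit of the mutant groups alone. The protease inhibitor gene A2m rose from 14.3 ± 10.9 to 40.8 ± 15.7 CPM with overlapping groups (1.78 ± 0.37, adjusted p = 0.0239). A2m and Lrrc31 lost the call without any 1 of the mutant libraries.

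Some of the 20 genes called without the replicate block fall outside the naming rule, and those named next were chosen after their values were seen. Besides Serpina3m and Peg13 the 20 include Strada, the pseudokinase partner of the kinase LKB1, at 14.3, 14.5 and 16.1 CPM in unc5B MUT against 33.5, 34.1 and 37.8 CPM in neo1 MUT (1.23 ± 0.13, edgeR adjusted p = 0.000997, or 0.0276 without the block). Strada was at 28.7 ± 0.257 CPM in control and 34.7 ± 5.597 CPM in netrin-1 WT, so that unc5B MUT was the low group. Gas6, the ligand of the TAM receptor kinases, was at 37.1, 35.6 and 37.3 CPM and 14.3, 12.3 and 9.29 CPM, and the ephrin receptor gene Ephb4 at 68.6, 67.2 and 58.2 CPM and 20.3, 20.2 and 30.6 CPM. Calcoco2, an autophagy receptor, was at 59.2, 60.2 and 81.6 CPM and 21.8, 22.3 and 19.9 CPM, and Ifitm3, an interferon-induced membrane protein, at 103, 97.9 and 113 CPM and 40.8, 44.7 and 43.9 CPM. For Gas6, Ephb4, Calcoco2 and Ifitm3 the log2 fold changes were -1.62 ± 0.20, -1.46 ± 0.17, -1.63 ± 0.20 and -1.28 ± 0.13, with adjusted p-values of 0.0358, 0.0276, 0.0362 and 0.0266 without the block. Tmem235 was the only other gene besides Strada that was higher in neo1 MUT (0.161, 0.218 and 0.217 CPM against 1.18, 1.39 and 2.26 CPM).

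The genes that fell were concentrated on chromosome 15. It held 140 of the 642 genes that fell (21.8%) but 3.98% of the autosomal genes tested, and 17.4% of its 805 tested genes fell while 2 rose. Its 422 genes over 10 CPM had a median log2 fold change of -0.49, a ratio of 0.711, and 398 of the 422 were below 0. The median was -0.47, -0.48 and -0.50 within numbers 1, 2 and 3. Along the chromosome, the medians of the 7 bins of 10 Mb with at least 20 such genes ranged from -0.55 to -0.36. Against control the chromosome 15 median was -0.44 in neo1 MUT, 0.04 in unc5B MUT and -0.34 in netrin-1 WT. Chromosome 3 had a median of -0.17 (-0.11, -0.10 and -0.27 within numbers 1, 2 and 3; 6 rose and 46 fell) and chromosome 5 one of -0.13, and all other autosomes lay between -0.05 and 0.07. Against control the chromosome 3 median was 0.03 in neo1 MUT, 0.20 in unc5B MUT and -0.01 in netrin-1 WT, so that here unc5B MUT was the group apart. The chromosome 5 medians against control were -0.07, 0.05 and -0.12 in the same order. DNA copy number was not analysed here.

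Most of the endoderm genes lie on other chromosomes. Without chromosome 15 2.58% of autosomal genes fell, and the counts of the 4 endoderm and basement membrane lists were as before except that Dab2 left the receptor list, where 4 of 7 fell. Without chromosome 15, 5 of 23 imprinted genes, 1 of 9 cadherins and 1 of 12 integrins fell. Itga5, Sqle, Cdh6, Lrrk2 and Peg13 also lie on chromosome 15, and for Itga5 and Sqle the log2 fold changes of -0.55 and -0.64 were near the chromosome's median of -0.49. Those of Dab2, Lrrk2 and Peg13 (-2.09, -3.09 and -3.10) were larger. The number of chromosome 15 genes that fell was 43, 41 and 37 without neo1 MUT library 1, 2 or 3, 11, 13 and 53 without unc5B MUT library 1, 2 or 3, 3 without the block and 217 without the libraries numbered 3. The median lay between -0.46 and -0.53 in all of these.

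**Figure D5:**
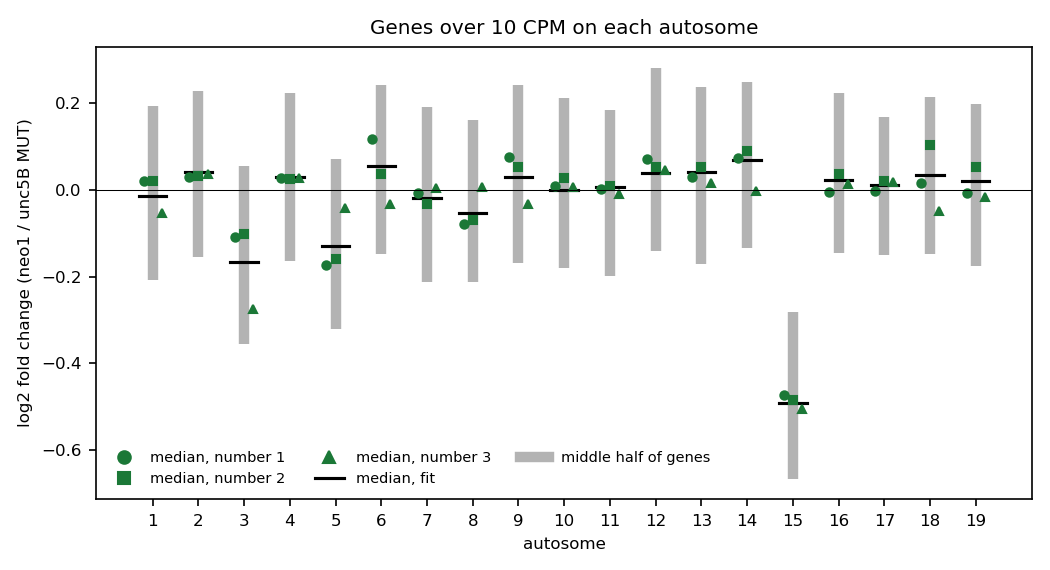
Log2 fold change of neo1 MUT over unc5B MUT (y axis) for genes over 10 CPM on each autosome (x axis). Grey bars span the lower to the upper quartile of genes, black lines are medians of the fit and green markers the medians within numbers 1, 2 and 3; chromosome 15 has a median of -0.49, with all 3 numbers between -0.47 and -0.50, while chromosomes 3 and 5 have -0.17 and -0.13.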

How the data were processed

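RNA sequencing libraries of CGR8 cells in 4 groups of 3 were compared. Per the submitters' processing notes, the tools were STAR 2.5.2b, FastQC 0.11.5, Bowtie2, Bowtie, DESeq2 and R 3.3.2, and the builds named were GRCm38.p5, mm10 and GRCh38. Which tool counted the reads, the role of each build and any use of strand are not given in the sources used here. The authors deposited estimated counts per Ensembl gene, which are not whole numbers and were rounded before testing in place of the whole counts that had been planned for. The authors also deposited normalised values on a log2 scale, which were not used, and a table of comparisons with, per the file headers, log2 fold changes, a signed fold score (not used) and p-values; only its counts are quoted.

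Genes were tested with edgeR 4.0.16 (R 4.3.3, limma 3.58.1) by the quasi-likelihood test, with TMM scaling, edgeR's default filter on low counts, the 12 libraries in one fit, group and replicate number as terms, and Benjamini-Hochberg adjustment over all 21053 tested genes. CPM use TMM library sizes, and differences within a number use log2 CPM with a prior count of 2. Autosomes and overlaps are from GENCODE M21 (GRCm38), which matched 52566 of 52661 IDs. Promoter sequences are RefSeq's (GRCm38.p6). The scripts were tested on simulated data.

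The titles number the replicates alike in each group, and what the number stands for is not given. After removal of group means the 18 pairs of same-numbered libraries correlated at 0.58 to 0.88, which was the ground for using the number as a block. Libraries numbered 1 and 2 also correlated across the mutants (0.55 to 0.56). With the other groups, some crossed pairs of these numbers correlated more than same-numbered pairs. Control library 1 correlated at 0.65 with neo1 MUT library 2 but at 0.58 with neo1 MUT library 1. Other pairs went the other way, such as control library 1 with unc5B MUT libraries 1 and 2 (0.75 and 0.66). These correlations therefore do not show that libraries numbered 1 and 2 are matched by number across all groups.

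The genes compared and the lists were chosen with earlier results of these data known. Genes were named by a rule. It took the 15 largest differences each way among called autosomal genes with one sign in all 3 numbers, a conventional symbol and 5 CPM or more on average in the higher group. It added up to 6 members of each list with the smallest p-values, and Ntn1, Neo1, Unc5b, Pou5f1, Nanog, Sox2 and Gata6. Other list members and the genes called without the block are named for description. Some list members that count in the totals are not reported here by name. Alternatives were DESeq2 1.42.0, limma-voom, other scaling, filters and thresholds, no block, the mutant libraries alone, and leaving out libraries. The search of single chromosomes was added after seeing the data.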

Additional observations from a re-analysis of the deposited data

How the results depend on the processing

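The number of autosomal genes called, 956 with 314 higher and 642 lower in neo1 MUT, changed by more than 1.5 times under many settings. Without the replicate block 20 were called (2 higher, 18 lower). DESeq2 with the block called 2054 (901 higher, 1153 lower), limma-voom with the block 1670 (638 and 1032), and the block fit of the mutant groups alone 1951 (798 and 1153). An adjusted p of 0.01 gave 142 (27 and 115), and a test against a 1.5-fold change gave 111 (17 and 94). Leaving out libraries gave from 16 to 2000 genes in all, from 0 to 806 higher and from 16 to 1194 lower. The lowest counts came without the libraries numbered 1 or 2 in every group, where 2245 and 2235 autosomal genes had an unadjusted p under 0.05, and the highest without those numbered 3. Why they differ was not tested. RLE size factors (948), a filter of 1 CPM in 3 libraries (1032), no filter beyond 1 count (1237) and adjustment over autosomal genes alone (938) stayed within 1.5 times. No gene among the 956 that a setting could test changed sign, and 929 of them were called with RLE size factors, 922 by DESeq2 and 952 by limma-voom. The replicate block, which pairs the libraries by number, decided most of the 74 calls among the named genes, of which 2 were called without it (Peg13 and Serpina3m). With 3 libraries a group, one of them apart from the others, a gene that missed the threshold is not shown to be equal in both mutants.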

Other observations

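Several of the 20 genes called without the replicate block have no conventional name or lie close together; they were looked at after their values were seen. Of these genes 3 lie on chromosome 11 between 83175186 and 83260960, namely Slfn4, AI662270 and Gm11427, and all 3 were lower in neo1 MUT. AI662270 was at 43.8, 29.9 and 31.2 CPM in unc5B MUT against 2.05, 2.54 and 3.57 CPM in neo1 MUT (-3.72 ± 0.25, edgeR adjusted p = 3.49e-05). Gm11427, a transcribed pseudogene that overlaps AI662270 on the same strand, was at 12.3, 12.2 and 11.8 CPM and 0.919, 1.33 and 1.26 CPM (-3.38 ± 0.22, adjusted p = 3.49e-05). Slfn4, a Schlafen family gene, was at 1.08, 1.28 and 0.815 CPM and 0.0855, 0.0523 and 0.0525 CPM. In control AI662270 was at 20.9 ± 3.59 CPM and in netrin-1 WT at 25.2 ± 7.14 CPM, between both mutants.

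A further 5 are long non-coding RNAs on chromosomes 3, 9, 10 and 12, namely Gm43549, Gm48362, Gm47939, Gm47761 and Gm46349. Their genes span 4.34 to 5.42 kb of the genome. The log2 fold changes of these 5 RNAs were -2.25, -2.49, -2.56, -2.44 and -2.46. Gm48362 was at 18.3, 29.2 and 17.5 CPM in neo1 MUT, 149, 113 and 105 CPM in unc5B MUT, 52.4, 46.9 and 61.7 CPM in control and 136.6, 108 and 132 CPM in netrin-1 WT. Gm43549 was at 11.2 ± 3.598, 53.2 ± 6.51, 25.2 ± 6.04 and 65.8 ± 22.02 CPM in the same order. In all 5 the mean of control lay between the means of the mutants, and whether they share sequence, and so reads, was not tested.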
